A study of Mus musculus with 6 samples.

Results

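Cell-matrix adhesion was examined in the right atrium (RA) through 34 genes of 54093 in the expression table. They were chosen by gene symbol from the integrins, the syndecans and the proteins of the focal adhesion, by a rule that uses no measured value but was set with earlier results of these data known, and each symbol matched 1 gene. Of the 34 genes, 17 encode receptors (13 integrin subunits and 4 syndecans) and 17 encode adaptors that act on the cytoplasmic side. RNA-seq was read in 3 sham and 3 volume overload (VO) libraries of RA free wall myocardium taken at postnatal day 21 (P21). All mice were wild type C57BL/6, and both groups had been operated on at P7. In VO mice, a needle puncture from the abdominal aorta into the inferior vena cava made an aortocaval fistula, which returns arterial blood to the right heart. The sham-operated mice had no fistula. The labels give neither the sex of the mice behind a library nor whether a library is 1 mouse or a pool, so the p-values below measure only the spread between these libraries.

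Integrins are paired α and β subunits that span the membrane and hold matrix proteins such as laminin, fibronectin and collagen. Syndecans are membrane proteoglycans whose heparan sulfate chains bind matrix and growth factors beside the integrins. Inside the cell, talin and kindlin bind the β tail and activate the receptor. Vinculin, filamin and the complex of ILK, PINCH and parvin then tie the receptor to actin. In heart muscle these proteins gather at costameres, which fix the Z-discs to the membrane, and they take part in the sensing of stretch.

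The libraries held between 15963082 and 17237903 fragments on genes, and 32 of the 34 genes passed the filter of a mean of at least 1 FPKM (fragments scaled by gene length and library size). The RA tissue expressed all 10 cardiomyocyte markers, and the 6 skeletal muscle markers were all under 1 FPKM on average. The summed level of the 10 cardiomyocyte markers was 16920 to 20563 FPKM in sham and 8424 to 14129 FPKM in VO. Of the 10 markers, 9 had a log2 fold change below 0, against 51.5% of all tested genes. At an unadjusted p under 0.05, 5 (50%) were lower, against 8.08% of all tested genes. VO library 1 stood apart from the others. It had the lowest cardiomyocyte sum, and its 10 macrophage and leukocyte markers summed to 816 FPKM against 215 to 305 FPKM in the other 5 libraries. All 10 of these markers were above 0 in VO against sham, against 48.5% of all tested genes. Cd52 and Cd68 (20%) were higher at an unadjusted p under 0.05, against 3.89% of all tested genes. Of the 10, 5 (50%) were higher in VO without overlap (Ptprc, Csf1r, Cd68, Adgre1 and Laptm5), against 8.25% of all tested genes. The sums of the fibroblast, endothelial, smooth muscle, mesothelial, platelet and ventricular lists overlapped between the groups. An overlapping sum does not show that its genes were level. Gsn held 1604 of the 2676 fibroblast FPKM in sham library 1 and 321 of 1803 FPKM in VO library 1. Of 9 tested smooth muscle markers, 3 (33.3%) were higher and 2 (22.2%) lower without overlap, against 8.25% and 12.9% of all tested genes. Among them, Rgs5 had a log2 fold change of 0.437 and Acta2 of -0.999. All 3 tested ventricular markers were lower in VO. Myl3 and Myh7 (66.7%) were at an unadjusted p under 0.05, against 8.08% of all tested genes. Myh7 (33.3%) was lower without overlap, against 12.9% of all tested genes. The part of the ventricular markers in the lower adaptors was not tested. In bulk tissue, fewer cells of a type and less RNA per cell cannot be told apart.

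No adhesion gene passed the test across all genes. The adjusted p-values of the 32 tested genes lay between 0.371 and 0.945 (limma with Benjamini-Hochberg adjustment over 12627 genes), against 1 gene called among all genes (0.00792%), the natriuretic peptide gene Nppb. At an unadjusted p under 0.05, 6 of the 32 genes (18.8%) were lower in VO, against 8.08% of all tested genes. They were the integrin subunits Itgb6 and Itga9 and the adaptors Lims2, Flnc, Itgb1bp2 and Sorbs2. Only Sdc1 was higher at that level, 1 of 32 against 3.89% of all tested genes. Without VO library 1, 4 genes were lower (Itgb6, Lims2, Flnc and Itgb1bp2) and 0 higher, against 4.91% and 2.51% of all tested genes in that fit. The sham and VO libraries did not overlap for 4 genes higher in VO (12.5%, against 8.25% of all tested genes) and for 6 lower (18.8%, against 12.9%). The direction of the 7 genes at this level was the same under every alternative tried. Among genes with a mean of at least 5 FPKM, 5 of 27 adhesion genes were lower at this level, against 821 of all 7156 tested genes. The share of lower genes depended on the scaling. With every library scaled to the same sum of FPKM (TPM), the median of all genes moved up by 0.14 on the log2 scale, and 3 adhesion genes were lower (Itgb6, Lims2 and Itgb1bp2) and 5 higher (Sdc1, Sdc3, Sdc4, Itga6 and Itga8) at an unadjusted p under 0.05. Over all 12627 tested genes, TPM gave 489 lower and 1080 higher at this level, against 1020 and 491 with the main scaling. The share of higher genes among all genes at this level thus went from 32.5% to 68.8%.

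**Figure D1:**
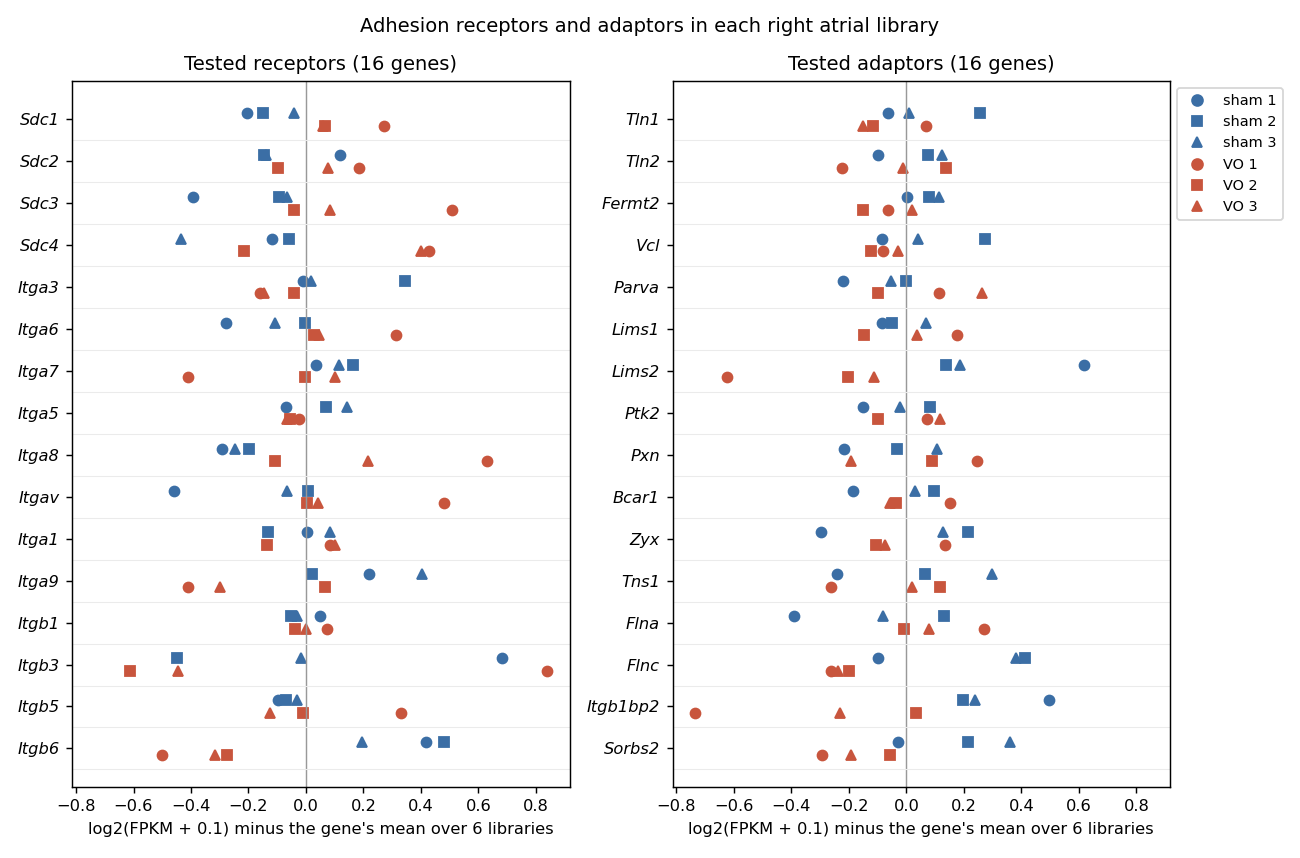
Level of the 16 tested receptors and 16 tested adaptors in each library, plotted as log2(FPKM + 0.1) minus the mean of the gene over the 6 libraries. Blue symbols are sham libraries and red symbols VO libraries, with circles, squares and triangles for libraries 1, 2 and 3. The VO circles lie farthest to the left for Lims2 and Itgb1bp2 and farthest to the right for Sdc3, Itga8 and Itgb3.

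Of the 32 tested genes, 16 had a log2 fold change above 0 and 16 below, against 48.5% and 51.5% of all tested genes. Of the 16 tested receptors, 10 had a log2 fold change above 0 and 6 below, with a median of 0.07. Of the 16 tested adaptors, 6 were above 0 and 10 below, with a median of -0.07. The median of all tested genes was -0.01. Neither median kept its sign in every fit that left out 1 library. Without VO library 1 the receptor median was -0.001 and the adaptor median -0.07, and without sham library 3 they were 0.07 and 0.003. All 4 genes that were higher without overlap were receptors (Sdc1, Sdc3, Itga6 and Itga8). Of the 6 that were lower without overlap, 4 were adaptors (Lims2, Flnc, Itgb1bp2 and Sorbs2). Among receptors, 25% were higher and 12.5% lower without overlap, and among adaptors 0% and 25%. The shares of all tested genes were 8.25% and 12.9%. In single libraries, the median of the adaptors minus the median of the receptors was -0.06, 0.17 and 0.14 in sham libraries 1 to 3 and -0.23, -0.06 and -0.09 in VO libraries 1 to 3. Sham library 1 and VO library 2 were at the same level, so the groups overlapped. The difference of the medians between adaptors and receptors was -0.15 with all libraries, -0.07 without VO library 1 and -0.31 without sham library 1. Under TPM both medians were above 0, at 0.21 for the receptors and 0.06 for the adaptors, and their difference was -0.14. Genes are not replicates of a condition, so no p-value was given for this difference.

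**Figure D2:**
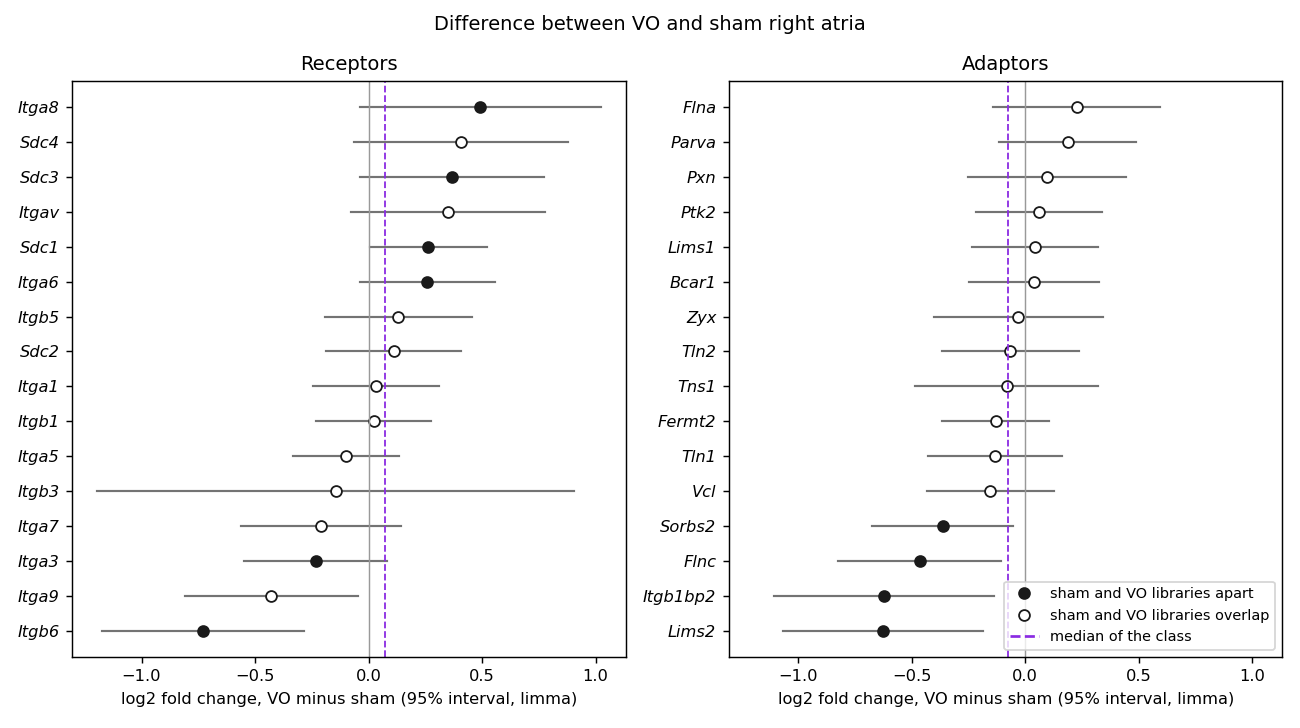
Log2 fold change of VO against sham for the tested receptors and adaptors, with 95% intervals from limma. Filled points mark genes whose sham and VO libraries do not overlap, and the dashed line marks the median of the class (0.07 for receptors and -0.07 for adaptors). The intervals of Itgb6, Itga9, Lims2, Itgb1bp2, Flnc and Sorbs2 lie below 0, and that of Sdc1 lies above 0.

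The 4 syndecans were all above 0 in VO. Sdc1, the syndecan of epithelia and plasma cells that is also found in injured heart, was at 5.35, 5.56 and 6.00 FPKM in sham and 7.47, 6.47 and 6.43 FPKM in VO. Every VO library was above every sham library, with the gap between 6.00 and 6.43 FPKM. For Sdc1 the log2 fold change was 0.26 with a standard error of 0.11 (unadjusted p = 0.047, limma), and its adjusted p was 0.414. It ranged from 0.19 to 0.31 when libraries were left out in turn, and in none of these 6 fits was the unadjusted p under 0.05. Sdc3, a syndecan best known from nerve and muscle, was at 13.1, 16.2 and 16.5 FPKM in sham and 24.6, 16.8 and 18.3 FPKM in VO. The groups did not overlap, but VO libraries 2 and 3 were close to the sham libraries. Its log2 fold change was 0.37 with all libraries and 0.20 without VO library 1. Sdc4, the syndecan of focal adhesions, was at 11.0, 11.5 and 8.80 FPKM in sham and 16.1, 10.3 and 15.8 FPKM in VO. Here VO library 2 lay within the sham range and the other 2 VO libraries above it. Sdc4 had a log2 fold change of 0.41 with a standard error of 0.20 (adjusted p = 0.432, limma), and it ranged from 0.29 without sham library 3 to 0.62 without VO library 2. Sdc2, the most abundant syndecan of this tissue and known from mesenchymal cells, was at 31.4 to 37.7 FPKM in sham and 32.4 to 39.4 FPKM in VO, giving a log2 fold change of 0.11, which was 0.05 without VO library 1 and 0.20 without sham library 1. The 4 syndecans summed to 64.8 ± 2.16 FPKM in sham and 76.9 ± 10.9 FPKM in VO (SD, n = 3), and Sdc2 made up 51.6% and 47.2% of these sums. VO library 1 was the highest of the 6 libraries in all 4 syndecans and also in leukocyte markers, whose part in these values was not tested.

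Among the laminin-binding α subunits, Itga6 was higher and Itga3 lower in VO without overlap, and Itga7 overlapped. Itga6, which serves endothelial, epithelial and immature muscle cells, was at 13.6, 16.5 and 15.3 FPKM in sham and 20.5, 16.8 and 17.0 FPKM in VO. The groups did not overlap, with 16.5 and 16.8 FPKM as the nearest values. This gave a log2 fold change of 0.26 (adjusted p = 0.432, limma) and 0.17 without VO library 1. Itga7, the laminin receptor of mature striated muscle, was at 9.73, 10.7 and 10.3 FPKM in sham and 7.12, 9.49 and 10.2 FPKM in VO. VO library 3 lay inside the sham range and VO library 1 was the lowest. Its log2 fold change was -0.21, and -0.06 without VO library 1. The ratio of Itga6 to Itga7 within a library was 1.40, 1.54 and 1.48 in sham and 2.88, 1.77 and 1.67 in VO. All 3 VO libraries exceeded the sham libraries (two-sided exact permutation test, p = 0.1, the smallest that 3 against 3 libraries can give). Itga3, another laminin receptor that is best known from epithelia, was at 3.94, 5.07 and 4.02 FPKM in sham and 3.54, 3.86 and 3.58 FPKM in VO. It was lower in VO without overlap, by a narrow gap, with a log2 fold change of -0.23 (adjusted p = 0.469, limma) that was -0.12 without sham library 2.

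The α subunits that read the RGD sequence of fibronectin and vitronectin showed no common direction. Itga8, expressed by fibroblasts and smooth muscle, had 158 to 188 fragments per library in sham and 190 to 361 in VO. Its levels were 1.38, 1.48 and 1.43 FPKM in sham and 2.70, 1.58 and 2.01 FPKM in VO. Sham was tight and VO was spread above it without overlap. Itga8 had the highest log2 fold change of the 32 tested genes, at 0.49 with a standard error of 0.22 (adjusted p = 0.422, limma), and it was 0.30 without VO library 1. Itgav, the α subunit shared by several vitronectin receptors, was at 5.98, 8.30 and 7.88 FPKM in sham and 11.6, 8.28 and 8.50 FPKM in VO. VO library 2 lay just under the highest sham library, so the groups overlapped, and the log2 fold change was 0.35, or 0.20 without VO library 1 and 0.21 without sham library 1. Itga5, the fibronectin receptor subunit and the most abundant α subunit here, was at 21.8, 24.0 and 25.2 FPKM in sham and 22.5, 21.9 and 21.8 FPKM in VO, giving a log2 fold change of -0.10.

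Of the collagen receptors, Itga1 was level and Itga11 was scarce. Itga1, found on smooth muscle, pericytes and fibroblasts, was at 4.71 to 5.49 FPKM in sham and 4.71 to 5.56 FPKM in VO, at a log2 fold change of 0.03 with a 95% interval from -0.25 to 0.31. Itga11, a collagen receptor of fibroblasts, was under the filter, with 39 to 64 fragments per library. It was at 0.539, 0.441 and 0.622 FPKM in sham and 0.440, 0.562 and 0.758 FPKM in VO (two-sided exact permutation test, p = 0.7), so no difference was detectable at this depth.

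Itga9 (ENSMUSG00000039115, chr9:118606690-118901003 on the + strand of GRCm38), the α subunit that binds tenascin and osteopontin, was at 12.7, 11.0 and 14.4 FPKM in sham and 8.16, 11.4 and 8.81 FPKM in VO. VO libraries 1 and 3 were under every sham library, and VO library 2 lay between sham libraries 1 and 2. The log2 fold change was -0.43 with a standard error of 0.16 (unadjusted p = 0.032, limma), with an adjusted p of 0.410. It stayed under 0.05 unadjusted in 2 of the 6 fits that leave out 1 library, and the log2 fold change ranged from -0.57 without VO library 2 to -0.33 without VO library 1. The sum of the 9 α subunits was 80.6 ± 5.13 FPKM in sham and 79.6 ± 2.06 FPKM in VO (SD, n = 3), and the groups overlapped. Itga9 made up 15.8% ± 2.06 of it in sham and 11.9% ± 2.33 in VO (SD, n = 3), and Itga6 made up 18.8% ± 1.12 and 22.7% ± 1.99 (SD, n = 3).

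The β subunits were dominated by Itgb1, the partner of all α subunits listed here. Itgb1 was at 181, 169 and 171 FPKM in sham and 184, 170 and 175 FPKM in VO. The groups overlapped almost fully, and it had a log2 fold change of 0.02 with a 95% interval from -0.23 to 0.27. It made up 80.8% of the summed FPKM of Itgb1, Itgb3, Itgb5 and Itgb6 in sham and 80.1% in VO. Other β subunits, such as Itgb2, are not in this sum. Itgb5, a vitronectin receptor subunit, was at 35.9 to 37.6 FPKM in sham and at 48.4, 38.1 and 35.2 FPKM in VO. VO library 1 was above the other 5 libraries, and the log2 fold change of Itgb5 went from 0.13 to -0.001 without it.

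Itgb6 (ENSMUSG00000026971, chr2:60598292-60722643 on the - strand of GRCm38) had the lowest log2 fold change of the 32 tested genes. It pairs with αv on epithelia and is known for releasing active TGF-β from its latent form. Its levels were 2.12, 2.21 and 1.80 FPKM in sham and 1.07, 1.27 and 1.23 FPKM in VO. These rest on 208 to 271 fragments per library in sham and 138 to 147 in VO, and the groups were well apart. The log2 fold change was -0.73 with a standard error of 0.19 (unadjusted p = 0.006, limma), and the adjusted p was 0.371. Leaving out libraries in turn gave -0.81 to -0.66, and the unadjusted p was under 0.05 in all 6 of these fits and in all 20 alternatives in which the gene was tested. The mean went from 2.04 ± 0.217 FPKM to 1.19 ± 0.106 FPKM (SD, n = 3), so VO was 41.7% lower.

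The promoters were searched for motifs of factors that act in heart muscle. RefSeq starts (GRCm38.p6) were matched for 24 of the 34 genes, and the 250 bases before each start were read on both strands. The CArG box, the site of serum response factor, was found in 3 of the 24 (12.5%; Fermt2, Itgb6 and Vcl), against 1.62% of 27025 genes. These stretches are shown because Itgb6 had the lowest log2 fold change of the tested genes and Vcl carries the same 10 letters. The Itgb6 stretch lies before a RefSeq start that is inside the longer span of the gene in the table. The capitals mark the CArG box, and each stretch is written 5′ to 3′ on the strand of the gene.
Itgb6 (chr2:60673724-60673753, - strand): cacctgacttCCTTATAAGGtgaatgagga
Vcl (chr14:20929161-20929190, + strand): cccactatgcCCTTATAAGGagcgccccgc
Fermt2 (chr14:45530250-45530279, - strand): tccttcatttCCATAAAAGGgcagcgctcc

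The log2 fold changes of these 3 genes were -0.73, -0.15 and -0.13. Another motif, CATTCC, the core of the site of TEAD factors, was found in 4 of the 24 genes (16.7%; Flna, Flnc, Itgb1 and Vcl), against 14.4% of all genes. It was present in both Flnc and Flna, whose log2 fold changes were -0.47 and 0.23. The MEF2 motif was found in Bcar1 and Lims1 (8.33%, against 1.99% of all genes), which had log2 fold changes of 0.04 and 0.04. A match is a description of letters in these windows and not a site of binding.

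Itgb3, the β subunit of the platelet fibrinogen receptor and of a vitronectin receptor, was split by library rather than by group. It was at 3.56, 1.57 and 2.15 FPKM in sham and 3.98, 1.39 and 1.58 FPKM in VO. In both groups library 1 was the highest, and the log2 fold change was -0.15 with a 95% interval from -1.19 to 0.90. It was -0.60 without VO library 1 and 0.16 without sham library 1. The same libraries were the highest in platelet genes. Itga2b, its partner in platelets, was at 6.45, 1.12 and 1.67 FPKM in sham and 4.28, 1.42 and 0.736 FPKM in VO. The 5 platelet markers summed to 117, 24.4 and 32.3 FPKM in sham and 71.7, 28.4 and 32.0 FPKM in VO. The part of platelet RNA in the Itgb3 values was not tested.

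**Figure D3:**
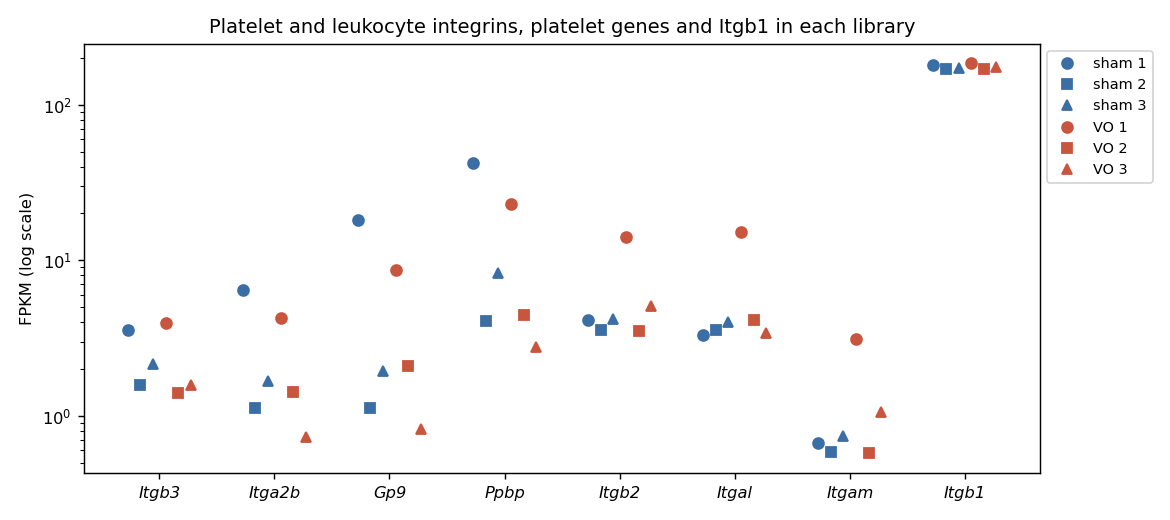
FPKM of Itgb3 and Itgb1 in each library beside the platelet genes Itga2b, Gp9 and Ppbp and the leukocyte integrins Itgb2, Itgal and Itgam, on a log scale. Sham library 1 and VO library 1 (circles) are the highest for Itgb3 and the platelet genes, VO library 1 alone is the highest for the leukocyte integrins, and Itgb1 is level at 169 to 184 FPKM.

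The activators of integrins and vinculin were all slightly below 0, and none reached an unadjusted p under 0.05. Tln1, the talin of most cells, was at 27.5, 34.3 and 28.9 FPKM in sham and 30.1, 26.5 and 25.9 FPKM in VO. Tln2, the talin that prevails in mature heart muscle, was at 8.06, 9.10 and 9.42 FPKM in sham and 7.37, 9.51 and 8.57 FPKM in VO. Both overlapped between the groups, with log2 fold changes of -0.13 and -0.07. Leaving out 1 library gave -0.20 (without VO library 1) to -0.04 (without sham library 2) for Tln1, and -0.15 (without VO library 2) to 0.03 (without VO library 1) for Tln2. Fermt2, the kindlin of heart and mesenchyme, was at 49.2, 51.9 and 53.1 FPKM in sham and 47.0, 44.3 and 49.8 FPKM in VO. Only VO library 3 reached into its sham range, and the log2 fold change was -0.13 with a 95% interval from -0.36 to 0.11. Vcl, which encodes vinculin, was at 9.86, 12.7 and 10.7 FPKM in sham and 9.88, 9.59 and 10.3 FPKM in VO, giving a log2 fold change of -0.15, or -0.23 without sham library 1 and -0.05 without sham library 2. Its exons share 25.5% of their bases with Ap3m1 on the opposite strand, which was at 10.1 to 11.8 FPKM in sham. Under TPM, the values of Tln1, Tln2 and Fermt2 were just above 0, at 0.006, 0.07 and 0.01.

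In the complex of ILK, PINCH and parvin, Lims2 was lower in VO without overlap, while its paralog Lims1 overlapped. Lims2 (ENSMUSG00000024395), which encodes PINCH-2, was at 60.0, 43.0 and 44.5 FPKM in sham and 25.3, 33.9 and 36.1 FPKM in VO. Sham library 1 was the highest and VO library 1 the lowest, and the nearest values of the groups were 43.0 and 36.1 FPKM. The log2 fold change was -0.63 with a standard error of 0.19 (unadjusted p = 0.012, limma), and the adjusted p was 0.404. Without VO library 1 it was -0.47, and the unadjusted p was under 0.05 in all 6 fits that leave out 1 library and in all 21 alternatives. Without both libraries numbered 1, an alternative chosen after seeing the data, it was -0.32. Lims1, which encodes PINCH-1 of most cells, was at 37.5, 38.4 and 41.6 FPKM in sham and 44.8, 35.8 and 40.8 FPKM in VO. Its groups overlapped fully, at a log2 fold change of 0.04 with a 95% interval from -0.24 to 0.32. In FPKM, Lims2 was therefore above Lims1 in every sham library, at a ratio of 1.60, 1.12 and 1.07. It was below Lims1 in every VO library, at 0.565, 0.947 and 0.887. Which gene is above depends on the length of Lims2, 2623 bases in the deposited values and 3060 exonic bases in the annotation. The order of the libraries does not depend on it. The exact permutation p of this ratio was 0.1, the smallest that 3 against 3 libraries can give. Parva, which encodes α-parvin and links the complex to actin, was at 10.6, 12.3 and 11.9 FPKM in sham and 13.4, 11.5 and 14.8 FPKM in VO, giving a log2 fold change of 0.19, or 0.10 without VO library 3 and 0.28 without VO library 2.

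Ilk (ENSMUSG00000030890, chr7:105736592-105742925 on the + strand of GRCm38) encodes the integrin-linked kinase at the centre of this complex, and its level is uncertain here. It was listed at 0.351, 0.127 and 0.157 FPKM in sham and 0.181, 0.0671 and 0.288 FPKM in VO. These values rest on 3 to 15 fragments per library, while its partners Lims1, Lims2 and Parva were at 10.6 to 60.0 FPKM. Of the 2744 exonic bases of Ilk in the annotation, 2461 (89.7%) also lie in exons of genes on the opposite strand, 2106 in Taf10 and 355 in Rrp8. Whether reads were counted by strand is not given in the sources used here, and the part of this overlap in the low count was not tested. Taf10 was at 3.96 to 6.72 FPKM and Rrp8 at 3.72 to 5.62 FPKM. The groups overlapped for Ilk, with an exact permutation p of 0.7, where 0.1 is the smallest that 3 against 3 libraries can give. No difference was detectable with these libraries. Among the 34 genes, only Ilk and Vcl shared over 10% of their exonic bases with another gene.

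**Figure D4:**
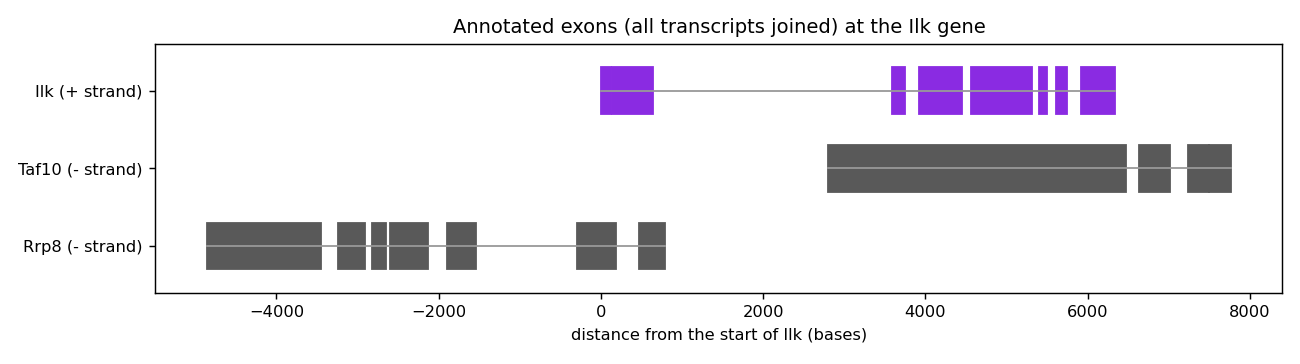
Annotated exons of Ilk, Taf10 and Rrp8, with all transcripts of a gene joined, drawn by distance in bases from the start of Ilk. Exons of Taf10 cover the 3′ part of Ilk and exons of Rrp8 its first part, together 89.7% of its exonic bases.

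The kinase and scaffold adaptors were close to their sham level. Ptk2, which encodes focal adhesion kinase, was at 4.36 to 5.15 FPKM in sham and 4.53 to 5.28 FPKM in VO, giving a log2 fold change of 0.06. Pxn, which encodes the scaffold paxillin, was at 7.45 to 9.34 FPKM in sham and 7.57 to 10.3 FPKM in VO, at 0.09. Bcar1, which encodes the stretch-sensitive docking protein p130Cas, was at 5.51 to 6.72 FPKM in sham and 6.03 to 6.99 FPKM in VO, at 0.04. Each of the 3 had a VO range that overlapped most of the sham range. Zyx, which encodes zyxin of actin repair sites, was at 22.7, 32.4 and 30.6 FPKM in sham and 30.7, 26.0 and 26.6 FPKM in VO. Tns1, which encodes tensin-1 of fibrillar adhesions, was at 43.8, 54.0 and 63.7 FPKM in sham and 43.1, 56.1 and 52.4 FPKM in VO. Both were spread widely within sham, and their log2 fold changes of -0.03 and -0.08 had 95% intervals from -0.40 to 0.34 and from -0.49 to 0.32. Both were above 0 under TPM, at 0.11 and 0.06.

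Of the filamins, which crosslink actin and bind β tails, Flnc was lower in VO without overlap and Flna overlapped. Flnc (ENSMUSG00000068699, chr6:29433256-29461883 on the + strand of GRCm38), the filamin of striated muscle, was at 21.7, 31.0 and 30.3 FPKM in sham and 19.3, 20.2 and 19.7 FPKM in VO. The VO libraries were tight and lay under all sham libraries, of which sham library 1 was the nearest. For Flnc the log2 fold change was -0.47 with a standard error of 0.15 (unadjusted p = 0.018, limma), and the adjusted p was 0.404. It ranged from -0.63 without sham library 1 to -0.37 without sham library 2, with an unadjusted p under 0.05 in 4 of the 6 fits that leave out 1 library. Flna, the filamin of non-muscle cells and smooth muscle, was at 21.4, 30.8 and 26.5 FPKM in sham and 33.8, 27.9 and 29.7 FPKM in VO. Its groups overlapped, and its log2 fold change was 0.23, or 0.09 without sham library 1 and 0.35 without sham library 2. The ratio of Flnc to Flna within a library was 1.01, 1.01 and 1.14 in sham and 0.571, 0.725 and 0.663 in VO. The 2 filamins were thus about equal in every sham library, and Flnc was the lower in every VO library (exact permutation p = 0.1, the smallest possible).

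**Figure D5:**
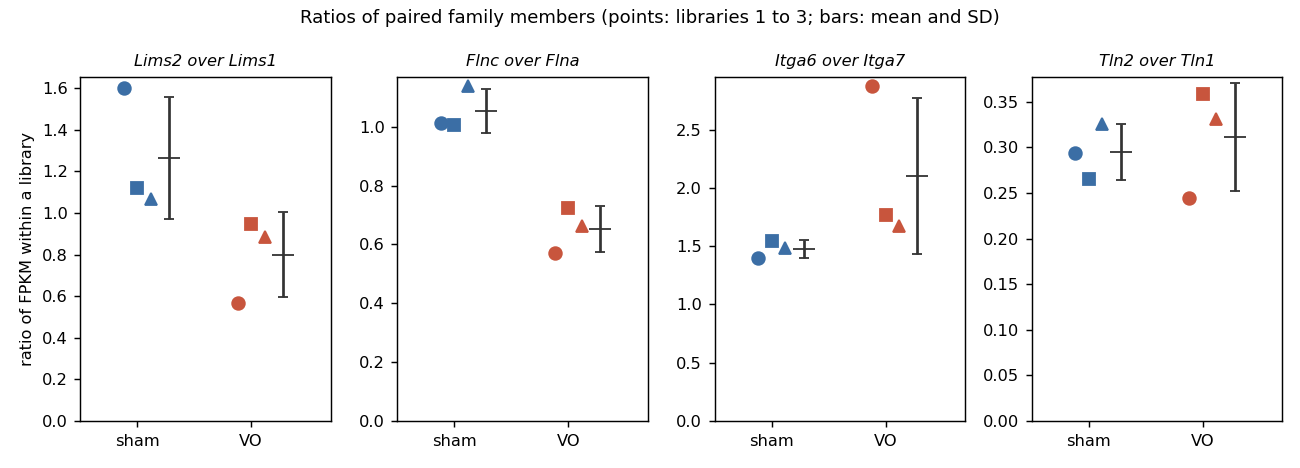
Ratio of FPKM between 2 members of a family within each library for Lims2 over Lims1, Flnc over Flna, Itga6 over Itga7 and Tln2 over Tln1. Points are libraries 1 to 3 (circle, square, triangle), bars are the mean and SD, and each axis starts at 0. The first 3 ratios do not overlap between sham and VO, while Tln2 over Tln1 overlaps, at 0.265 to 0.326 in sham and 0.245 to 0.358 in VO.

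Such ratios were computed for 10 pairs of genes, chosen after their values were seen. The other ratios without overlap were Itgb6 to Itgb1 and Itgb1bp2 to Itgb1, both lower in VO. The ratio of Itgb1bp2 to Itgb1 was 0.552, 0.480 and 0.486 in sham and 0.231, 0.424 and 0.345 in VO. Those of Itga7, Itga9 and Itgav to Itgb1, of Sdc4 to Sdc2 and of Tln2 to Tln1 overlapped between the groups, with exact permutation p-values of 0.2 to 0.7.

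Both muscle adaptors were lower in VO. Itgb1bp2 (ENSMUSG00000031312, chrX:101449088-101453541 on the + strand of GRCm38) encodes melusin, a muscle protein that binds the tail of β1 integrin and is known for its part in the hypertrophic response to load. It was at 99.8, 81.1 and 83.3 FPKM in sham and 42.4, 72.2 and 60.2 FPKM in VO. The groups did not overlap, VO library 1 was the lowest, and VO library 2 was the nearest to sham. For Itgb1bp2 the log2 fold change was -0.62 with a standard error of 0.21 (unadjusted p = 0.019, limma), and the adjusted p was 0.404. Without VO library 1 it was -0.41, and the unadjusted p was under 0.05 in 5 of the 6 fits that leave out 1 library. Sorbs2 (ENSMUSG00000031626, chr8:45507788-45827906 on the + strand of GRCm38), which encodes a scaffold of Z-discs and intercalated discs that binds vinculin, was at 12.2, 14.5 and 16.0 FPKM in sham and 10.2, 11.97 and 10.9 FPKM in VO. The groups did not overlap, but sham library 1 and VO library 2 almost met. The log2 fold change was -0.36 with a standard error of 0.13 (unadjusted p = 0.028, limma), and the adjusted p was 0.408. Its unadjusted p was under 0.05 in 2 of the 6 fits that leave out 1 library.

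The order of the libraries in Itgb1bp2 was the same as in the cardiomyocyte markers. Their summed level was 20563, 16920 and 17605 FPKM in sham and 8424, 14129 and 11608 FPKM in VO, and Myl7, Actc1 and Myh6 made up 82.4% of it. Per 1000 FPKM of this sum, Itgb1bp2 was at 4.85, 4.79 and 4.73 in sham and 5.04, 5.11 and 5.19 in VO. On that scale VO was slightly higher without overlap. Over the geometric mean of the same 10 markers, which gives each marker equal weight, Itgb1bp2 was at 0.166, 0.147 and 0.145 in sham and 0.128, 0.142 and 0.141 in VO, so it was lower without overlap. The direction of Itgb1bp2 relative to cardiomyocyte markers thus turned with the way the markers were joined. Lims2, Flnc, Sorbs2, Itga9 and Itgb6 overlapped between the groups on both scales, with exact permutation p-values of 0.2 to 1. For Lims2, the values per 1000 FPKM were 2.92, 2.54 and 2.53 in sham and 3.01, 2.40 and 3.11 in VO. For Flnc they were 1.05, 1.83 and 1.72 in sham and 2.29, 1.43 and 1.69 in VO. None of these 5 was apart from sham in all VO libraries on either scale. Both denominators were themselves lower in VO without overlap, with the geometric mean at 550 to 601 FPKM in sham and 332 to 509 FPKM in VO. Dividing by them raises any gene in VO relative to sham, so an overlap on these scales does not give a cause. The part of cardiomyocyte content in the 6 lower genes was not tested. These scales were added after the values were seen.

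Other genes of the pathway were read from 4 lists, of which no gene passed the adjusted test. Of 13 other integrin subunits, 6 were expressed above the filter, and 0 reached an unadjusted p under 0.05. Their median log2 fold change was 0.70, and 0.16 without VO library 1. That library was the highest of the 6 libraries in Itgal, Itgb2, Itgam and Itga4, as it was in leukocyte markers. The leukocyte subunit Itgal was at 3.29, 3.56 and 3.99 FPKM in sham and 15.1, 4.16 and 3.41 FPKM in VO. Itgb2, its β partner, was at 3.57 to 4.17 FPKM in sham and 14.1, 3.52 and 5.10 FPKM in VO. Of the 6, only Itga4, a subunit of leukocytes that binds fibronectin and VCAM-1, did not overlap, at 0.809, 0.793 and 0.936 FPKM in sham and 3.39, 1.03 and 1.26 FPKM in VO. Its log2 fold change was 0.89, and 0.39 without VO library 1. Under the filter, Itgb4, a laminin receptor subunit of epithelia named after its values were seen, did not overlap either, at 0.458, 0.496 and 0.639 FPKM in sham and at least 0.809 FPKM in each VO library (two-sided exact permutation test, p = 0.1, the smallest possible).

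Of 58 other adaptors and kinases, 53 were tested, with a median log2 fold change of -0.02, which ranged from -0.09 without sham library 1 to 0.02 without sham library 3. At an unadjusted p under 0.05, 12 were lower (22.6%) and 2 were higher (3.77%), against 8.08% and 3.89% of all tested genes. Pdlim5, a Z-disc scaffold, was at 70.5, 64.2 and 79.5 FPKM in sham and 41.9, 46.8 and 48.1 FPKM in VO. Its groups were far apart, and its log2 fold change was -0.64 with a standard error of 0.12 (adjusted p = 0.284, limma). Csrp3, which encodes the muscle LIM protein, was at 285, 220 and 229 FPKM in sham and 117, 152 and 159 FPKM in VO, giving a log2 fold change of -0.78. Fhl2, a LIM protein of heart muscle that binds integrin tails, was at 264, 219 and 245 FPKM in sham and 141, 152 and 177 FPKM in VO, at -0.63. These 3 were lower in every VO library than in any sham library, as was the cardiomyocyte marker sum, whose part in these values was not tested. Actn1, the α-actinin of adhesions and stress fibres, was at 6.30, 8.09 and 7.36 FPKM in sham and 11.4, 9.67 and 9.76 FPKM in VO, giving a log2 fold change of 0.50 (adjusted p = 0.373, limma). Dab2, an endocytic adaptor of integrins, had a log2 fold change of 0.53, also without overlap, and 0.34 without VO library 1.

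Of 41 matrix proteins that integrins bind, 36 were tested and 29 were above 0, with a median of 0.25. This median ranged from 0.17 without VO library 1 to 0.30 without sham library 2. At an unadjusted p under 0.05, 11 were higher (30.6%) and 3 lower (8.33%), against 3.89% and 8.08% of all tested genes. The named genes on the higher side were fibrillin and collagen VI. Fbn1 was at 14.0, 21.6 and 17.3 FPKM in sham and 36.9, 22.7 and 27.7 FPKM in VO, which gave a log2 fold change of 0.72, or 0.53 without VO library 1. Col6a1 and Col6a3 had log2 fold changes of 0.53 and 0.41, without overlap. Col6a1 was at 0.36 without VO library 1, and Col6a3 at 0.32 without VO library 3. Ctgf, a matricellular integrin ligand, was lower, at 214, 204 and 278 FPKM in sham and 77.2, 160 and 129 FPKM in VO. Its log2 fold change was -0.97 with a standard error of 0.28 (adjusted p = 0.391, limma). The epithelial laminin chain Lamb3 was also lower, at 7.65 ± 0.548 FPKM in sham and 5.20 ± 1.47 FPKM in VO (SD, n = 3), as was Mfge8, an RGD protein that bridges to αv integrins, at a log2 fold change of -0.25. Beside these counts stand the fibroblast markers, of which 7 of 10 were above 0. At an unadjusted p under 0.05, 3 (30%) were higher (Mfap5, Col3a1 and Col1a2) and 0 lower, against 3.89% and 8.08% of all tested genes. The log2 fold changes of Pdgfra, Dcn, Dpt, Tcf21 and Lum were -0.01, -0.03, 0.03, 0.10 and 0.11. Col1a1 was at 0.51 and Gsn at -0.83. The part of the fibroblast markers in the result was not tested, and Col1a1, Col1a2 and Col3a1 are in both lists.

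Of 27 syndecan partners and enzymes of heparan sulfate, 24 were tested, with a median of 0.06 and with 2 higher (8.33%) and 1 lower (4.17%) at an unadjusted p under 0.05, against 3.89% and 8.08% of all tested genes. The median ranged from 0.02 without sham library 1 to 0.14 without VO library 2. Gpc1, a glypican that carries heparan sulfate on a lipid anchor, was at 109, 108 and 106 FPKM in sham and 49.0, 93.0 and 75.8 FPKM in VO. Sham was tight and every VO library was below it, at a log2 fold change of -0.61, or -0.36 without VO library 1. Gpc6, another glypican, and Cd44, the hyaluronan receptor of leukocytes and stroma, were higher without overlap, with log2 fold changes of 0.67 and 0.77. Both were highest in VO library 1, at 11.4 and 19.0 FPKM, and were 0.37 and 0.40 without it. The chain polymerase Ext1 and the chain-starting enzyme Xylt2 had log2 fold changes of -0.20 and 0.18.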

How the data were processed

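RNA of 6 RA samples at P21, 3 sham and 3 VO, was sequenced after preparation with the NEBNext Ultra kit. The submitters' processing notes name HISAT2 2.0.5, featureCounts 1.5.0-p3, StringTie 1.3.3b, DESeq2 1.16.1 and GATK 3.7 and the builds GRCm38 and mm10, and the strand setting of the counting is not given in the sources used here. The deposited values are FPKM per gene, computed by the authors from gene length and fragment counts. They hold a scaling between libraries by the median of ratios, so scaling them again left them as they were. The table holds 54093 complete genes, and 1 incomplete line was left out. For 98.4% of the 54039 genes shared with the GRCm38 annotation the coordinates were identical. Each value times the gene length came out as a whole multiple of 1 fragment for 100% of the values above 0 (tolerance 0.01), which gave back the fragment counts.

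The study's own count test (DESeq2) was not run. The deposited FPKM were the values of the main test, and the recovered fragment counts were tested with voom as an alternative. Genes with a mean of at least 1 FPKM over the 6 libraries were kept, and log2(FPKM + 0.1) was fitted with limma 3.58.1 in R 4.3.3 (eBayes with trend), VO against sham, two-sided, without covariates, with Benjamini-Hochberg adjustment over 12627 genes and a threshold of 0.05. Fold changes are on this scale, which understates those of low genes. Ratios, and genes under the filter, were compared by exact permutation tests. The fit was tested on simulated data.

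The genes and the lists were chosen with earlier results of these data known. All 34 genes are named. From each pathway list, up to 3 genes per direction with the smallest p among tested genes without overlap are named, and others are named where a small count or a cell type needs it. A gene that this rule names is not reported here. Alternatives changed the pseudocount, the filter, the scaling, the variance model, the weights, the replicate block and the libraries. Libraries that share a replicate number were not treated as pairs.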

Additional observations from a re-analysis of the deposited data

How the results depend on the processing

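Across 21 alternatives, the smallest adjusted p of an adhesion gene was 0.223 (limma), above the threshold of 0.05. Of the 32 tested genes, 18 kept their direction in all alternatives that tested them, and 14 did not. The number of adhesion genes lower at an unadjusted p under 0.05 was 6, and 3 under TPM and under fragment totals. Over all 12627 tested genes it was 1020, and 489 under TPM and 631 under fragment totals. When 1 library was left out, 3 to 6 adhesion genes were lower (3 without sham library 3). The share of all tested genes that was lower in these fits ran from 4.55% (without sham library 1) to 9.61% (without VO library 2). It was 6.66% without sham library 3. The number of adhesion genes higher was 1, and 5 under TPM and fragment totals. Over all tested genes it was 491, and 1080 under TPM and 942 under fragment totals. With a mean FPKM of at least 0.1 or 5, quantile normalization, robust variance, array weights or the replicate block, 0 adhesion genes were higher. Over all tested genes, 710 of 19053, 229 of 7156, and 511, 489, 525 and 325 of 12627 were higher in these settings, in that order. When 1 library was left out, 0 to 3 adhesion genes were higher (3 without VO library 2). The share of all tested genes was 2.23% (without sham library 1) to 6.21% (without VO library 2). Without both libraries numbered 1, chosen after seeing the data, 0 adhesion genes were higher, against 340 of 12627 over all tested genes. The receptor median was 0.07, and 0.21 under TPM and 0.26 under quantile normalization, with -0.0013 (without VO library 1) to 0.147 (without VO library 2) when 1 library was left out. The adaptor median was -0.07, and 0.064 under TPM and 0.032 under quantile normalization, with -0.173 (without sham library 1) to 0.0031 (without sham library 3) when 1 library was left out. Their difference ranged from -0.31 (without sham library 1) to -0.068 (without VO library 1). The causes of these shifts were not tested.

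Over all genes, the number with an adjusted p under 0.05 (limma) was 1, as with voom on the recovered fragments. It was 2 with a pseudocount of 1, and 3 with a mean FPKM of at least 0.1 or without the trend. It was 0 with quantile normalization, robust variance, the replicate block, without both libraries numbered 1, and in every fit that left out 1 library. The number at an unadjusted p under 0.05 was 1511, and 855 (without sham library 1) to 1998 (without VO library 2), with 937 without VO library 1. It was 964 without both libraries numbered 1. Among these genes the share that was higher was 32.5%, and 68.8% under TPM, 59.9% under fragment totals and 21.8% with a mean FPKM of at least 5.

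Libraries of the same number did not deviate together (correlations of -0.11, 0.01 and -0.03), and 0 of 6 libraries correlated best with their own number. With the replicate block, 933 genes had an unadjusted p under 0.05, 608 of them lower and 325 higher. Of the adhesion genes, 5 were lower and 0 higher.

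Itgb3, at a log2 fold change of -0.15 with a standard error of 0.44, changed sign and varied widely. The other log2 fold changes that changed sign were small. Under TPM they were 0.041 (Itga5), 0.0059 (Tln1), 0.071 (Tln2), 0.0099 (Fermt2), 0.109 (Zyx) and 0.057 (Tns1). Under quantile normalization they were 0.034 (Fermt2), 0.072 (Zyx) and 0.066 (Tns1), and under fragment totals 0.026 (Tln2), 0.064 (Zyx) and 0.012 (Tns1). With array weights they were -0.024 (Lims1), -0.023 (Pxn) and -0.050 (Bcar1). Without both libraries numbered 1 they were -0.017 (Itgb5), -0.065 (Lims1), -0.020 (Ptk2), -0.088 (Pxn) and -0.110 (Bcar1). Leaving out 1 library gave -0.026 to 0.108 (Itga1), -0.0083 to 0.051 (Itgb1), -0.601 to 0.160 (Itgb3), -0.0012 to 0.226 (Itgb5), -0.152 to 0.030 (Tln2), -0.034 to 0.127 (Lims1), -0.0043 to 0.215 (Pxn), -0.044 to 0.097 (Bcar1), -0.186 to 0.069 (Zyx) and -0.223 to 0.047 (Tns1). With 3 libraries per group, differences smaller than the 95% intervals given were not detectable.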
